A study of Homo sapiens with 18 samples.

Results

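The genes described here are enzymes, and a pair of efflux transporters, of xenobiotic and steroid metabolism, measured in HepG2 cells carrying thyroid hormone receptors. They were taken from a list of 48 gene symbols covering cytochromes P450 and their reductase, conjugating enzymes, other oxidizing, reducing and hydrolysing enzymes, and ABC efflux transporters. A member was kept where an array feature was annotated to it alone. That left 44 of the 48 symbols, among 18404 genes with such a feature, and for UGT2A3, which had several features, the brighter feature was used. CYP2C19, CYP3A7, UGT2B11 and UGT2B15 had no feature of their own and were not analysed here.

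HepG2 is an established human hepatocellular carcinoma line. Clones carrying a TRα1 expression plasmid (6 clones), a TRβ1 expression plasmid (12 clones) or the empty plasmid (11 clones) were each combined into 1 pool. Every pool was treated for 6 h with 100 nM T3, the active thyroid hormone, or with ethanol alone, in medium with 10% hormone-stripped serum. The 6 groups were thus TRα1 pool on T3, TRα1 pool on vehicle, TRβ1 pool on T3, TRβ1 pool on vehicle, control pool on T3 and control pool on vehicle, with 3 biological repeats of each. All 3 pools came from clones grown out after G418 selection. Because there was 1 pool per construct, the receptor and the particular clones in its pool cannot be told apart, and p-values measure the spread between repeats of the same pools.

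Xenobiotic metabolism is usually described in steps. Cytochromes P450, fed with electrons by POR, and other oxidoreductases and hydrolases introduce or expose a reactive group. UDP-glucuronosyltransferases, sulfotransferases and glutathione transferases then attach a polar group, and N-acetyltransferases attach an acetyl group. ABC transporters move the conjugate out of the cell. The same enzymes act on the body's own steroids, bile acids, retinoids and thyroid hormones, and the liver is the main site of their expression. Many are controlled by ligand-activated or stress-activated transcription factors such as AHR, CAR (encoded by NR1I3) and NRF2 (encoded by NFE2L2).

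Values are log2 expression after RMA, so a difference of 1 means a doubling of the signal. Group differences came from limma fitted over 20546 features with a gene symbol, once without a term for the replicate number and once with that number as a block. Arrays with the same replicate number deviated together. The outcome in both fits is therefore given where their adjusted p-values fall on different sides of 0.05. The words "with the block" mark the fit that has it. A feature was called where its Benjamini-Hochberg adjusted p was under 0.05. A member "passed" only in the fit named beside it. Array medians lay between 5.31 and 5.49. The first principal component held 49.2% of the variance and set replicate number 1, at -39.2 to -32.3, apart from numbers 2 and 3, at 12 to 22.6.

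The receptor genes themselves were examined first. THRA, which encodes TRα1, measured 7.96, 8.22 and 7.71 in the TRα1 pool on T3 and 7.39, 7.55 and 7.55 in the TRα1 pool on vehicle, against 7.08, 6.77 and 7.18 in the control pool on T3 and 6.95, 7.04 and 7.19 in the control pool on vehicle. All 6 TRα1 arrays lay above all 6 control arrays, and the difference passed on T3 (0.95 ± 0.14, SE; adjusted p = 0.00392) but not on vehicle (0.44 ± 0.14; adjusted p = 0.533, and 0.128 with the block). THRB, which encodes TRβ1, measured 7.39, 7.48 and 7.40 in the TRβ1 pool on T3 and 6.97, 7.01 and 6.88 in the TRβ1 pool on vehicle, against 6.90, 7.12 and 7.20 in the control pool on T3 and 6.41, 6.90 and 6.63 in the control pool on vehicle. TRβ1 and control overlapped on vehicle and not on T3, and neither difference passed (0.30 on vehicle, adjusted p = 1, and 0.332 with the block; 0.35 on T3, 1 and 0.218), so for TRβ1 the receptor gene's signal did not check the labels at this threshold. Whether these features cover the introduced plasmids is not given in the sources used here. All 8 hepatocyte markers were bright, from TTR at 10.0 to 11.1 to ALB at 12.5 to 12.9. Of the markers of other cell types, PTPRC lay at 2.27 to 2.86, PECAM1 at 3.92 to 4.46 and DCN at 2.41 to 2.82, whereas LYZ lay at 11.4 to 12.1 and ACTA2 at 8.99 to 9.63. TTR, a thyroid hormone carrier, was the 1 hepatocyte marker that moved between TRα1 and control on vehicle (-0.59; adjusted p = 0.211, and 0.000505 with the block), and on T3 it was lower too (-0.81; 0.0245). With the block alone AFP (-0.37; 0.0122, against 0.0951) and ALB (-0.27; 0.0467, against 0.419) were also lower in TRα1 than in control on T3. LYZ was lower in TRα1 with the block on vehicle (-0.37; 0.0335, against 0.348) and on T3 (-0.47; 0.00569, against 0.0837), as was PDGFRB on T3 (-0.38; 0.025, against 1). The part of these shifts in the differences below was not tested. In bulk RNA from a pool, fewer cells expressing a gene and less RNA per cell cannot be told apart.

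Across the 44 members, the differences between pools were carried by few genes. UGT2B4 and SULT1C2 were higher in both receptor pools than in the control pool, and DPYD and GDA were lower. These 4 were the members that passed in the fit without the block. There UGT2B4 passed in both receptor pools under both treatments, and SULT1C2 and GDA in TRα1 only. DPYD passed there in TRα1 under both treatments and in TRβ1 on T3 only. Another 7 passed between pools with the block only. Treatment with T3 for 6 h left most members within the spread of the repeats: CYP3A5 was higher on T3 in all pools and passed with the block, as did the mean CYP1A1 response over pools. For 32 of the 44 members no contrast passed in either fit. Of the 44, 33 averaged above the median of all features on the array, as did 61.4% of all features with a symbol.

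The members were chosen with earlier results of these data known, so their counts beside all features do not test enrichment. Counted over the members, 4 of 44 passed between TRα1 and control on vehicle, where 0.307% of all features were called. Of these, 2 were higher (0.243% of features) and 2 lower (0.0633%). With the block 7 passed, where 2.07% of features were called, 5 of them higher (1.38%) and 2 lower (0.686%). For TRβ1 against control on vehicle 1 passed, where 0.117% of all features were called, and 8 with the block, where 0.735% were called, 5 of them higher (0.506%) and 3 lower (0.229%). On T3 the counts were 4 for TRα1 against control (background 0.433%) and 7 with the block (2.83%), and 2 for TRβ1 against control (0.156%) and 6 with the block (0.871%). TRβ1 against TRα1 gave 0 members on vehicle (0% of features) and 0 on T3 (0.0438%), and with the block 3 (0.54%) and 4 (0.604%). An unadjusted p under 0.05 without the block was found for 7 members on vehicle (2.89% of features) and 6 on T3 (2.78%). Groups did not overlap for 8 members on vehicle and 11 on T3 for TRα1 against control, where 7.67% and 10.1% of features did not. The counts were 11 and 7 for TRβ1 against control (6.59% and 7.64%), and 5 and 7 for TRβ1 against TRα1 (5.47% and 5.85%). TRα1 and TRβ1 were compared with the same control arrays, so the overlap of their calls is not read as a result. On vehicle the median difference over members was 0.01 for TRα1 and 0.01 for TRβ1, beside 0.0007 and -0.0035 over all features.

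The promoters of 3 of these genes are shown because the genes stand for the kinds of result described here: SULT1C2 differed between pools, CYP3A5 differed between pools and on T3, and CYP1A1 was higher on T3. UGT2B4, described below, had no promoter entry in the sources used here. Each sequence is the 250 bases before the annotated start, 5′ to 3′ on the gene's strand, from RefSeq on GRCh38.p14. Capitals mark matches, on either strand, to AGGTCA (the core hexamer of many nuclear receptor sites), GCGTG (core letters of the AHR-ARNT element), TGACNNNGC (core letters of the antioxidant response element) and GTTAAT (core letters of the HNF1 element). SULT1C2 lies at chr2:108288645-108288894 on the plus strand, CYP3A5 at chr7:99679997-99680246 on the minus strand and CYP1A1 at chr15:74725529-74725778 on the minus strand.
SULT1C2: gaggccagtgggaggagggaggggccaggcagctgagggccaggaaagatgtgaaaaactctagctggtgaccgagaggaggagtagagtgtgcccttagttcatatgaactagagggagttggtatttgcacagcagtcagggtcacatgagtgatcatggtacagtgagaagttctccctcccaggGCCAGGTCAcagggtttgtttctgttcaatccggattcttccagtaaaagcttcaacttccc
CYP3A5: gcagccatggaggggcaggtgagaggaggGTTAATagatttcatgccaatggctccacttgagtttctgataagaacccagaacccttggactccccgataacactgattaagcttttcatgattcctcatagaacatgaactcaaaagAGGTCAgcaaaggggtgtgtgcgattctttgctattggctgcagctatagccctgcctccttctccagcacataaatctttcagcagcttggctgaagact
CYP1A1: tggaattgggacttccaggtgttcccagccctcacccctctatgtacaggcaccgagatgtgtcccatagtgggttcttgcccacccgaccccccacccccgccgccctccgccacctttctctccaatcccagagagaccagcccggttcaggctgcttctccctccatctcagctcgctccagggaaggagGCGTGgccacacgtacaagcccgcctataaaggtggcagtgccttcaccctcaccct
In SULT1C2 the capitals are an AGGTCA match at position -59 relative to the start, overlapped by a match to TGACNNNGC on the other strand at -62. CYP3A5 holds GTTAAT at -221 and AGGTCA at -101, and CYP1A1 holds GCGTG at -57. The windows of GDA and DPYD, which are not printed, held none of the 4 motifs. Over windows that also include the 50 bases after the start, 37 of the 44 members were covered, with 48 windows in all. Member windows on the chromosome that holds NAT2 were left out, a filter not applied to the 35116 windows of all genes. AGGTCA stood in 20.8% of these and in 13.8% of all 35116 windows, GCGTG in 20.8% and 36.5%, TGACNNNGC in 18.8% and 13.3%, and GTTAAT in 14.6% and 6.88%. A match describes the letters only.

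UGT2B4, which attaches glucuronic acid to bile acids and other hydroxylated compounds, was the member most different between pools. On vehicle it measured 10.32, 10.13 and 10.30 in the TRα1 pool and 9.83, 9.50 and 9.81 in the TRβ1 pool, against 8.60, 8.52 and 8.08 in the control pool (feature 8100784). The pools did not overlap, and every TRα1 array was also above every TRβ1 array. The TRα1 pool was 3.62-fold higher than control, a log2 difference of 1.86 ± 0.17 (SE; adjusted p = 2.54e-05), and the TRβ1 pool was 2.49-fold higher (1.31 ± 0.17; adjusted p = 0.00176). On T3 it measured 10.42, 10.56 and 10.62 in the TRα1 pool and 10.19, 9.81 and 10.16 in the TRβ1 pool, against 8.79, 8.49 and 8.23 in the control pool. On these other arrays the 3 pools again kept that order without overlap, with 2.03 ± 0.17 for TRα1 (adjusted p = 6.43e-06) and 1.55 ± 0.17 for TRβ1 (adjusted p = 0.00081). All 4 calls held, in both fits, with any single array of the groups compared left out. With the block they also held without all arrays of any 1 replicate number. Without the block the TRα1 calls held likewise. The TRβ1 calls without the block were lost without number 2 (adjusted p = 0.212 on vehicle and 0.241 on T3) or number 3 (0.404 and 0.171). TRβ1 minus TRα1 was -0.54 on vehicle and -0.48 on T3 and did not pass (adjusted p = 0.86 and 1; 0.155 and 0.231 with the block).

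UGT2A3 belongs to the same gene cluster on chromosome 4, where RefSeq's gene order runs UGT2B10, UGT2A3, UGT2B7, UGT2B11, UGT2B28, UGT2B4 and, past UGT2A2 and UGT2A1, SULT1B1 and SULT1E1. It was higher in the TRβ1 pool than in either other pool. On vehicle it measured 9.54, 9.52 and 9.91 there, 9.08, 8.87 and 8.92 in the TRα1 pool and 8.95, 9.21 and 9.07 in the control pool. On T3 it measured 9.61, 9.43 and 9.79 in the TRβ1 pool, 8.98, 8.80 and 9.02 in the TRα1 pool and 9.0, 9.22 and 9.19 in the control pool. No TRβ1 array overlapped either other pool on vehicle or on T3. TRβ1 minus TRα1 was 0.70 on vehicle and 0.68 on T3, and passed with the block (adjusted p = 0.00834 and 0.0107) but not without it (0.125 and 0.138). TRβ1 minus control was 0.58 on vehicle, passing with the block (0.0277, against 0.2 without), and 0.48 on T3, which did not pass (0.0681 with the block). The second feature of UGT2A3 averaged 7.87 ± 0.27 in the TRβ1 pool on vehicle, 7.13 ± 0.17 for TRα1 and 7.30 ± 0.10 for control (SD, n = 3 each) and so was also highest in the TRβ1 pool. With single arrays left out, the calls of the brighter feature with the block held in 3 of 6 against TRα1 on vehicle (adjusted p up to 0.0743), in 2 of 6 against TRα1 on T3 (up to 0.0862) and in 1 of 6 against control on vehicle (up to 0.151), the exception being replicate 2 of control.

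The other measured glucuronosyltransferases passed in no contrast. UGT2B10, which glucuronidates tertiary amines such as nicotine, differed by 0.40 between TRβ1 and control on vehicle (adjusted p = 0.287 with the block), and UGT2B7, the main enzyme for morphine, by 0.75 (adjusted p = 0.187 with the block). UGT2B genes are close in sequence, so a feature annotated to one of them may also carry signal from its neighbours, and the values of UGT2B4, UGT2B7 and UGT2B10 are uncertain to that degree.

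SULT1C2 transfers sulfate to small phenols. On vehicle it measured 7.15, 6.60 and 6.62 in the TRα1 pool and 6.74, 6.16 and 6.16 in the TRβ1 pool, against 5.50, 5.29 and 4.61 in the control pool (feature 8044212). Both receptor pools were above the control pool in every array, and TRα1 overlapped TRβ1. TRα1 was 3.16-fold higher than control (1.66 ± 0.24, SE; adjusted p = 0.00436). TRβ1 was 2.33-fold higher (1.22 ± 0.24) and passed with the block (adjusted p = 8.07e-05) but not without it (0.0799). On T3 it measured 7.01, 6.67 and 6.68 in the TRα1 pool and 6.42, 6.25 and 5.84 in the TRβ1 pool, against 5.53, 5.25 and 5.03 in the control pool, and here no pool overlapped another. TRα1 minus control was 1.52 (adjusted p = 0.00546, and 0.0504 without replicate 3 of the control pool on T3), TRβ1 minus control was 0.91 (adjusted p = 0.432, and 0.00106 with the block), and TRβ1 minus TRα1 was -0.61 (adjusted p = 1, and 0.0307 with the block). With the block, both receptor pools' calls against control held with any single array left out, while the TRβ1 against TRα1 call was lost with any of its 6 arrays left out. The TRβ1 call against control on T3 with the block was lost without all arrays of replicate number 1 (adjusted p = 0.0596). Without the block the TRα1 calls were lost without number 2 (0.391 on vehicle and 0.563 on T3) or number 3 (0.21 and 0.162).

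The remaining 4 sulfotransferases passed in no contrast. On vehicle, TRα1 minus control ranged over them between -0.36 for SULT1E1, which sulfates estrogens, and 0.24 for SULT2A1, which sulfates dehydroepiandrosterone and bile acids. SULT1B1, which acts on thyroid hormones, measured 3.37, 3.52 and 3.20 in the TRβ1 pool on vehicle, against 3.15, 3.12 and 3.10 in the TRα1 pool. Those arrays did not overlap, but the difference of 0.24 ± 0.15 did not pass (adjusted p = 1, and 0.768 with the block). SULT1A1, the main phenol sulfotransferase of liver, likewise did not overlap between TRβ1 (6.79, 6.72 and 6.72) and TRα1 (6.66, 6.60 and 6.49) on T3, at a difference of 0.16 (adjusted p = 1, and 0.838 with the block).

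**Figure D1:**
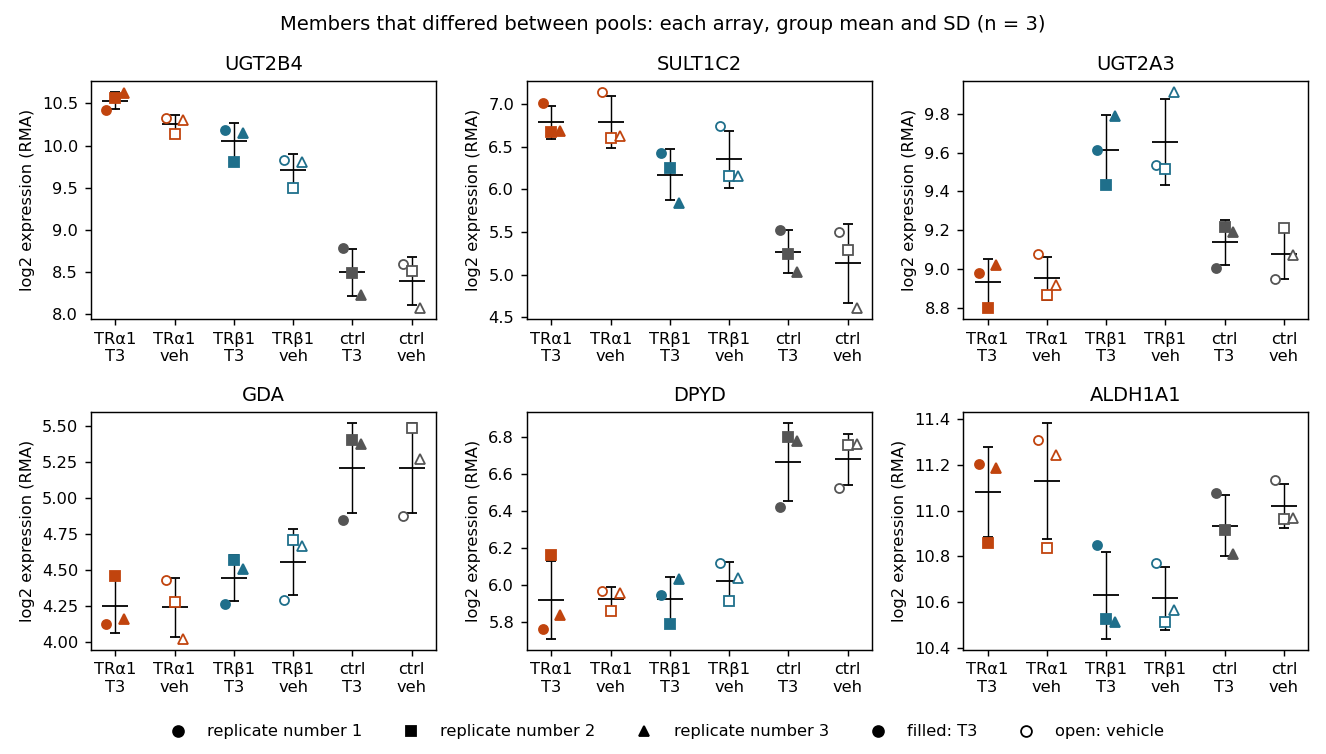
Log2 expression (RMA) of 6 members on each of 18 arrays, by pool and treatment, with the group mean and SD (n = 3); symbols give the replicate number, filled symbols are T3 and open symbols vehicle. UGT2B4 and SULT1C2 lie higher in both receptor pools than in the control pool, GDA and DPYD lie lower in both, UGT2A3 is high and ALDH1A1 low in the TRβ1 pool.

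DPYD, the first enzyme of pyrimidine breakdown and the one that inactivates fluorouracil, was lower in both receptor pools. On vehicle it measured 5.97, 5.86 and 5.95 in the TRα1 pool and 6.12, 5.91 and 6.04 in the TRβ1 pool, against 6.52, 6.76 and 6.76 in the control pool (feature 7917912). On T3 it measured 5.76, 6.16 and 5.84 in the TRα1 pool and 5.94, 5.79 and 6.03 in the TRβ1 pool, against 6.42, 6.80 and 6.78 in the control pool. The lowest control array stayed above the highest receptor array under both treatments, and TRα1 and TRβ1 overlapped. TRα1 minus control was -0.75 ± 0.13 on vehicle (adjusted p = 0.0177) and -0.75 ± 0.13 on T3 (0.0139). TRβ1 minus control was -0.66 on vehicle (adjusted p = 0.0838, and 0.0153 with the block) and -0.74 on T3 (0.0303). Leaving out single arrays ended these calls without the block. The TRα1 call on vehicle held only without replicate 1 of control, the TRα1 call on T3 held without replicate 2 of TRα1 or replicate 1 of control, and the TRβ1 call on T3 held only without replicate 1 of control, with adjusted p up to 0.121, 0.110 and 0.196 when any other array was left out. With the block, all 6 single-array leave-outs kept each of those 3 calls, and the TRβ1 call on vehicle held without replicate 1 of either group only (adjusted p up to 0.116). All 3 calls with the block were lost without all arrays of replicate number 3 (adjusted p = 0.187, 0.202 and 0.291 in that order). The TRβ1 call on T3 was also lost without those of number 2 (0.123).

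GDA, which deaminates guanine to xanthine, followed the same order at a low signal. Over the 18 arrays GDA averaged 4.65, below the lowest array median of 5.31. On vehicle it measured 4.43, 4.28 and 4.02 in the TRα1 pool and 4.29, 4.71 and 4.67 in the TRβ1 pool, against 4.87, 5.49 and 5.27 in the control pool (feature 8155802). On T3 it measured 4.12, 4.46 and 4.16 in the TRα1 pool and 4.27, 4.57 and 4.51 in the TRβ1 pool, against 4.85, 5.40 and 5.38 in the control pool. Neither receptor pool overlapped control under either treatment. TRα1 minus control was -0.97 ± 0.19 on vehicle (adjusted p = 0.0357) and -0.96 ± 0.19 on T3 (0.0322). Without the block the first held only without replicate 1 of control and the second without that replicate or replicate 2 of TRα1 (adjusted p up to 0.251 and 0.200). With the block both held in 6 of 6 single-array leave-outs. Both were lost with the block without all arrays of replicate number 2 (adjusted p = 0.148 and 0.0727) or of number 3 (0.0999 and 0.0811). TRβ1 minus control was -0.65 on vehicle and -0.76 on T3 and passed with the block only (adjusted p = 0.0397 and 0.0141, against 0.612 and 0.297 without it). Each TRβ1 call held in 1 of 6 leave-outs, that without replicate 1 of control (adjusted p up to 0.201 on vehicle and 0.105 on T3).

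The rest of the oxidoreductase and hydrolase members gave calls only with the block. EPHX1, the microsomal epoxide hydrolase, measured 8.73, 8.43 and 8.01 in the TRα1 pool and 8.82, 8.43 and 8.11 in the TRβ1 pool on vehicle, against 8.40, 7.67 and 7.56 in the control pool. Each receptor array was above the control array of its own replicate number, and number 1 was the highest in each group, so that the groups overlapped. The difference was 0.52 for TRα1 and 0.58 for TRβ1 (adjusted p = 0.0087 and 0.00797 with the block, 1 without), and on T3 0.52 and 0.52 (adjusted p = 0.00681 and 0.0163 with the block, 1 without). Both calls on vehicle were lost without replicate 2 of either group compared (adjusted p up to 0.0642 for TRα1 and 0.063 for TRβ1), the TRα1 call on T3 without replicate 2 of control (0.0569), and the TRβ1 call on T3 held only without replicate 1 of control (adjusted p up to 0.128).

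ALDH1A1, which oxidizes retinaldehyde to retinoic acid, was lower in the TRβ1 pool than in the TRα1 pool. It measured 10.77, 10.51 and 10.57 in the TRβ1 pool on vehicle, against 11.31, 10.84 and 11.24 in the TRα1 pool and 11.13, 10.96 and 10.97 in the control pool. On T3 it measured 10.85, 10.53 and 10.51 in the TRβ1 pool, against 11.21, 10.86 and 11.19 in the TRα1 pool and 11.08, 10.92 and 10.81 in the control pool. TRβ1 was below TRα1 without overlap under both treatments. The differences of -0.51 and -0.45 passed with the block (adjusted p = 0.0204 and 0.0395, against 0.642 and 0.98 without it). TRβ1 minus control on vehicle, -0.41, did not pass (adjusted p = 0.0684 with the block). AKR1C3, a ketosteroid and prostaglandin reductase, went the other way. It measured 11.28, 10.87 and 10.85 in the TRβ1 pool on vehicle, against 10.77, 10.55 and 10.42 in the TRα1 pool, and 11.35, 10.99 and 10.89 in the TRβ1 pool on T3, against 10.83, 10.60 and 10.55 in the TRα1 pool. The control pool lay at 10.83, 10.81 and 10.72 on vehicle. TRβ1 and TRα1 did not overlap, and the difference was 0.42 under both treatments (adjusted p = 0.0293 and 0.0288 with the block, 1 without). For both genes, the call on T3 was lost with any of the 6 arrays left out, and the call on vehicle held in 1 of 6 (without replicate 2 of the TRα1 pool for ALDH1A1, without replicate 2 of the TRβ1 pool for AKR1C3; adjusted p up to 0.247 and 0.199).

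ADH4, an alcohol dehydrogenase that also oxidizes retinol, was lower in the TRβ1 pool. It measured 8.08, 6.83 and 7.39 there on vehicle, against 8.41, 8.02 and 8.17 in the control pool, and 8.40, 7.0 and 7.51 on T3, against 8.58, 8.04 and 8.41 in the control pool. Every TRβ1 array was below the control array of its number, and the groups overlapped. The differences of -0.77 and -0.71 passed with the block (adjusted p = 0.0323 and 0.0444; 1 without), and held in 1 of 6 and 2 of 6 leave-outs (adjusted p up to 0.192 and 0.269), on vehicle only without replicate 1 of control and on T3 only without replicate 1 of either group. NAT2, which acetylates isoniazid and other aromatic amines and hydrazines, was higher in the TRα1 pool. It measured 4.93, 3.75 and 3.26 there on vehicle, against 3.08, 2.83 and 3.18 in the control pool, and 4.05, 4.03 and 3.52 on T3, against 3.14, 2.56 and 2.76 in the control pool. The groups did not overlap, but the replicate pairs on vehicle differed widely, by 1.85, 0.93 and 0.09. The mean differences of 0.95 and 1.04 passed with the block (adjusted p = 0.0378 and 0.0184, against 0.545 and 0.339 without it), and the vehicle difference was 0.61 without replicate 1 of TRα1. These calls were lost without replicate 1 or 2 of control, without replicate 2 of TRα1 and, on vehicle, without replicate 1 of TRα1 (adjusted p up to 0.157 on vehicle and 0.11 on T3). TRβ1 minus control for NAT2 was 0.15 on vehicle and 0.54 on T3, and did not pass (adjusted p = 0.861 and 0.348 with the block), although the T3 arrays of TRβ1 and control did not overlap.

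FMO5, a flavin monooxygenase, measured 8.0, 7.71 and 7.47 in the TRα1 pool on vehicle, against 7.21, 7.29 and 7.19 in the control pool. These did not overlap, yet the difference of 0.50 ± 0.21 did not pass (adjusted p = 0.944, and 0.096 with the block). NQO1, the quinone reductase that is a standard NRF2 target, differed by -0.07 for TRα1 and -0.03 for TRβ1 against control on vehicle, and ADH6 by 0.15 and 0.11. Neither passed.

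Among the cytochromes P450, CYP3A5 was the member with calls between pools. CYP3A5 hydroxylates many drugs and steroids. On vehicle it measured 5.35, 5.77 and 4.95 in the TRα1 pool and 5.58, 5.46 and 5.10 in the TRβ1 pool, against 4.78, 5.05 and 4.71 in the control pool. TRβ1 lay above control in every array, and TRα1 overlapped control. The differences of 0.51 for TRα1 and 0.53 for TRβ1 passed with the block (adjusted p = 0.0137 and 0.0212, against 0.894 and 1 without it), and held in 3 of 6 and 2 of 6 leave-outs (adjusted p up to 0.0944 and 0.134). Leaving out replicate 1 or 2 of control ended both calls, replicate 2 of TRα1 the first, and replicate 1 or 3 of TRβ1 the second. On T3, TRα1 minus control was 0.41 and passed with the block only (adjusted p = 0.038, lost with any 1 of 6 arrays left out). TRβ1 minus control, 0.35, did not pass (0.137 with the block). CYP3A genes are close in sequence, and the same uncertainty about shared signal holds for CYP3A4 and CYP3A5.

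The other P450 members and POR passed in no contrast between pools, though some groups did not overlap. CYP4F3, which inactivates leukotrienes, measured 6.52, 6.82 and 6.68 in the TRα1 pool on vehicle, against 6.33, 6.42 and 6.43 in the control pool (0.28; adjusted p = 0.227 with the block). POR, the electron donor of all microsomal P450s, measured 9.99, 10.34 and 10.06 in the TRβ1 pool and 9.97, 10.36 and 10.03 in the TRα1 pool on T3, against 9.58, 9.78 and 9.87 in the control pool. Every receptor array lay above every control array there, with differences of 0.39 and 0.37 (adjusted p = 0.121 and 0.0803 with the block). On vehicle POR was 9.95, 10.30 and 10.03 in the TRβ1 pool, against 9.73, 9.69 and 9.91 in the control pool (0.32; adjusted p = 0.253 with the block). CYP2J2, an arachidonic acid epoxygenase, was at 5.56, 5.83 and 5.55 in the TRα1 pool on T3, against 5.85, 6.12 and 6.21 for control, at a difference of -0.41 ± 0.15 with no overlap (adjusted p = 0.673, and 0.161 with the block). For TRβ1 on vehicle it was 5.98, 5.95 and 5.82, against 6.23, 6.10 and 6.28 in the control pool (-0.29; 0.479 with the block). CYP2C8, which metabolizes paclitaxel, differed by -0.13 between TRα1 (2.76, 2.78 and 2.74) and control (2.78, 3.0 and 2.88) on vehicle without overlap. CYP26A1, which breaks down retinoic acid, differed by 0.21 between TRβ1 (4.56, 4.63 and 4.44) and TRα1 (4.25, 4.39 and 4.36) on T3 without overlap. Neither of these passed (adjusted p = 0.686 and 0.613 with the block).

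None of the 8 glutathione transferase members and neither transporter passed between pools. On vehicle, the 8 differences between TRα1 and control ran between -0.15 for GSTM3 and 0.21 for GSTK1, and those between TRβ1 and control between -0.12 for MGST1 and 0.14 for GSTA1. ABCC2, the canalicular exporter of glucuronide, sulfate and glutathione conjugates, differed from control by -0.31 in TRα1 and -0.03 in TRβ1. ABCG2, which exports sulfate conjugates and many drugs, differed by -0.17 and -0.12.

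**Figure D2:**
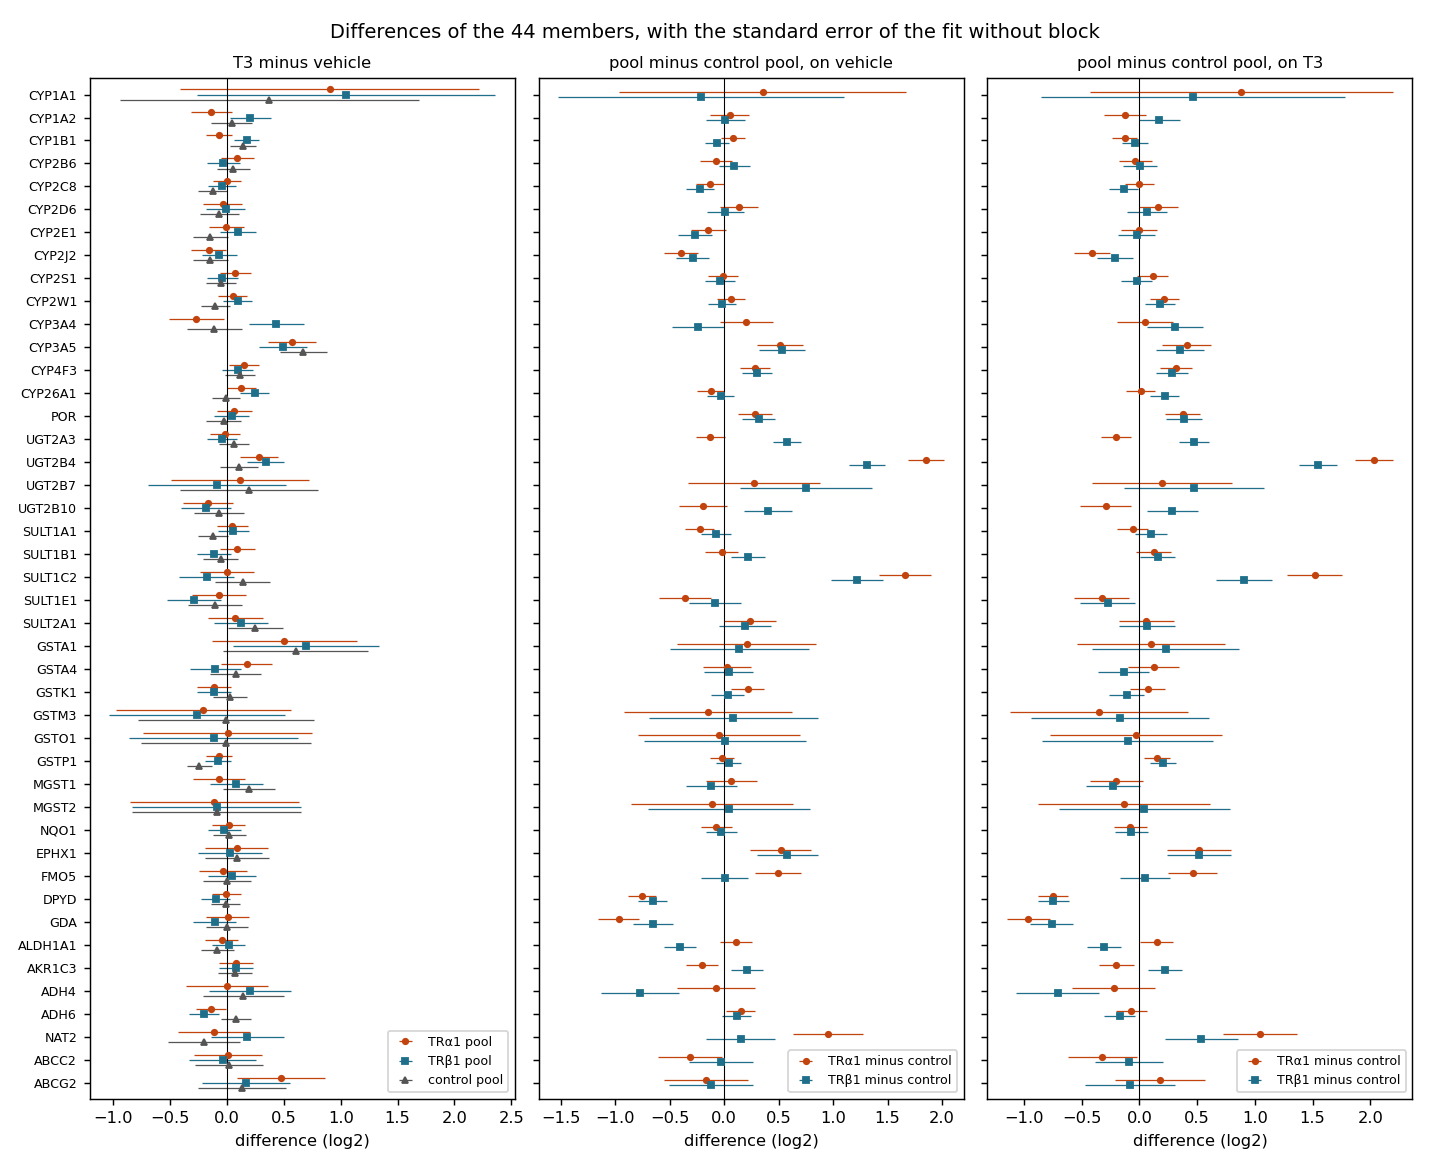
Differences of the 44 members on the log2 scale, with bars for the standard error of the fit without the block: T3 minus vehicle in each pool (left), each receptor pool minus the control pool on vehicle (middle) and on T3 (right). Most members sit near 0 in all panels; UGT2B4 and SULT1C2 stand to the right and DPYD and GDA to the left in both pool panels, and CYP1A1 has the widest bars.

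T3 was then compared with vehicle within each pool. CYP3A5 measured 5.94, 6.13 and 5.72 on T3 in the TRα1 pool, against 5.35, 5.77 and 4.95 on vehicle. In the TRβ1 pool it measured 5.91, 6.16 and 5.53 on T3, against 5.58, 5.46 and 5.10 on vehicle, and in the control pool 5.59, 5.71 and 5.25 on T3, against 4.78, 5.05 and 4.71 on vehicle. T3 was above vehicle in 9 of 9 pairs of the same pool and number, and the groups did not overlap in the control pool. The response was 0.57 in TRα1, 0.49 in TRβ1 and 0.67 in control, and passed with the block in each (adjusted p = 0.01, 0.0414 and 0.0147; 1 in each without it). These held in 3 of 6, 1 of 6 and 1 of 6 leave-outs (adjusted p up to 0.0829, 0.299 and 0.124). They remained without replicate 2 of either treatment or replicate 1 on T3 in TRα1, without replicate 1 on vehicle in TRβ1 and without replicate 3 on vehicle in control. The mean response over the pools was 0.58, or 1.49-fold (adjusted p = 2.66e-05 with the block, SE 0.06, and 0.0522 without it, SE 0.12), and with the block it passed with any of the 18 arrays left out. With the block it also passed without all arrays of replicate number 1, 2 or 3 (adjusted p = 0.00611, 0.00347 and 0.00689). The response in the receptor pools differed from that in the control pool by -0.10 (95% interval -0.40 to 0.20 with the block) for TRα1 and by -0.18 (-0.48 to 0.12) for TRβ1; neither passed.

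CYP1A1, which oxidizes polycyclic aromatic hydrocarbons and is the classical AHR target, measured 9.94, 7.59 and 7.21 on T3 in the TRα1 pool, against 9.62, 6.29 and 6.11 on vehicle. In the TRβ1 pool it measured 9.66, 7.23 and 6.60 on T3, against 9.19, 5.79 and 5.36 on vehicle, and in the control pool 9.47, 6.07 and 6.54 on T3, against 9.20, 5.52 and 6.25 on vehicle. All 9 pairs were higher on T3, and within each group replicate 1 stood further above the other 2 replicates than any T3 array above its vehicle pair. The mean response was 0.77, or 1.71-fold, with an SE of 0.76 without the block (adjusted p = 1) and 0.14 with it (adjusted p = 0.00834, and under 0.05 with any of the 18 arrays left out). With the block this call was lost without all arrays of replicate number 2 (adjusted p = 0.108) or of number 3 (0.173). It held without those of number 1 (0.0293). Per pool the response was 0.90 in TRα1, 1.05 in TRβ1 and 0.37 in control, and none passed (adjusted p = 0.194, 0.114 and 0.887 with the block). The differences between these responses did not pass either (TRα1 minus control 0.53, interval -0.22 to 1.28; TRβ1 minus control 0.68, interval -0.07 to 1.43, both with the block). AHR itself had a mean T3 difference of 0.01 (adjusted p = 1). Of 3 other AHR targets measured 1 passed, TIPARP at 0.26 (adjusted p = 0.0315), while ALDH3A1 at -0.05 and NFE2L2 at -0.01 did not (adjusted p = 1 for both). ALDH3A1 is named after its values were seen, to complete the count. Over all features, 0.423% were called for this mean response without the block.

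GSTA1, the major alpha-class glutathione transferase of liver, was the third member above vehicle in 9 of 9 pairs. It measured 7.37, 5.88 and 7.32 on T3 in the TRα1 pool, against 6.99, 5.35 and 6.71 on vehicle, 7.73, 6.30 and 6.92 on T3 in the TRβ1 pool, against 6.81, 5.51 and 6.54 on vehicle, and 7.90, 5.92 and 6.44 on T3 in the control pool, against 7.42, 5.59 and 5.43 on vehicle. T3 and vehicle arrays overlapped in each pool. The mean response of 0.60 did not pass (adjusted p = 1, and 0.0957 with the block). GSTA2, a near-identical paralog outside the member list, had a mean response of 0.77 (adjusted p = 0.169, and 0.00359 with the block), and signal of one GSTA gene may be shared with the other. Over all features, 2.04% were higher on T3 in 9 of 9 pairs, beside 3 of the 44 members, and 1.8% were lower in 9 of 9, beside 0 members.

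**Figure D3:**
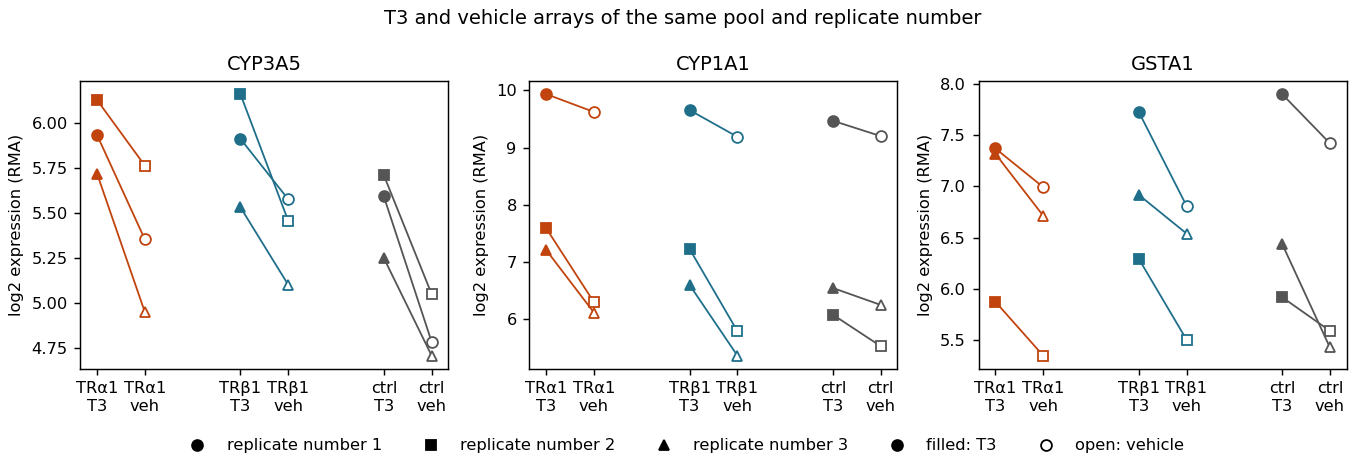
Log2 expression (RMA) of CYP3A5, CYP1A1 and GSTA1 on T3 arrays (filled) and vehicle arrays (open), with a line joining arrays of the same pool and replicate number. All 9 lines of each gene fall toward vehicle, and for CYP1A1 replicate number 1 lies near the top of the axis in all pools.

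No other member passed for T3. ABCG2 was higher in 8 of 9 pairs with a mean of 0.26 (adjusted p = 0.0801 with the block), UGT2B4 in 8 of 9 with 0.24 (0.256), and SULT2A1 in 8 of 9 with 0.15 (0.44). GSTP1, the pi-class glutathione transferase, was lower in 8 of 9 pairs with a mean of -0.13 (0.387). In single pools, groups did not overlap for UGT2B4 in the TRα1 pool (0.28 ± 0.17) and for CYP1B1, an estradiol hydroxylase, in the TRβ1 pool, at 3.86, 3.88 and 3.89 on T3 against 3.73, 3.58 and 3.81 on vehicle (0.17 ± 0.11). In the control pool this held, beside CYP3A5, for GSTP1, at 5.26, 5.32 and 5.23 on T3 against 5.39, 5.69 and 5.45 on vehicle (-0.24 ± 0.11), and for CYP2W1, at 7.16, 7.09 and 7.04 on T3 against 7.21, 7.19 and 7.20 on vehicle (-0.10 ± 0.13). Non-overlap thus reached 1, 1 and 3 members in TRα1, TRβ1 and control, in that order, beside 5.26%, 5.04% and 6.16% of all features.

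For T3 without the block 0 members passed in TRα1, 0 in TRβ1, 0 in control and 0 in the mean of the pools, where limma called 0.131%, 0.073%, 0.00973% and 0.423% of all features. In the same order, 1, 1, 2 and 2 members had an unadjusted p under 0.05, as did 2.55%, 2.22%, 2.03% and 3.82% of features. With the block the counts were 1, 1, 1 and 2, beside 0.667%, 0.477%, 0.0973% and 1.69% of features called. All of these members were higher on T3, as were 0.584%, 0.404%, 0.0973% and 1.36% of features. The mean response lay within 0.25 of 0 for 40 of the 44 members, and for 41 its 95% interval with the block lay inside -0.5 to 0.5. For the 3 differences between the pools' responses, 0 members passed in either fit, where 0% of features were called without the block and 0.0292%, 0% and 0% with it (TRα1 minus control, TRβ1 minus control and TRβ1 minus TRα1). Unadjusted p was under 0.05 for 0, 0 and 0 members without the block, beside 1.39%, 1.34% and 1.09% of features, and for 0, 1 and 1 with it, beside 3.75%, 4.06% and 3.01%. The unadjusted 95% interval of such a difference reached, for the median member, 0.35 to either side with the block and 0.525 without. An adjusted p under 0.05 asks for more than an interval clear of 0, so larger differences could go uncalled with 3 arrays per group. The CYP3A4 response, for 1, differed by 0.70 between TRβ1 and TRα1 and did not pass.

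The replicate number carried more of the members' variation than T3 did. The median member had 34.7% of its sum of squares between replicate numbers, 16.9% between pools and 0.843% between T3 and vehicle, beside 37.3%, 8.06% and 1.81% over all features. The replicate share was over 90% for 4 members. GSTO1 had 98.7%, MGST2, which conjugates lipid hydroperoxides and leukotriene precursors, had 98.4%, GSTM3 had 94.6% and NQO1 had 92.2%. The pool share was over 80% for 5 members, UGT2B4 (93.7%), DPYD (87.9%), SULT1C2 (85.8%), UGT2A3 (84.5%) and GDA (80.7%). The T3 share was over 10% for 5 members, led by CYP3A5 (46.1%) and GSTP1 (23.4%).

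**Figure D4:**
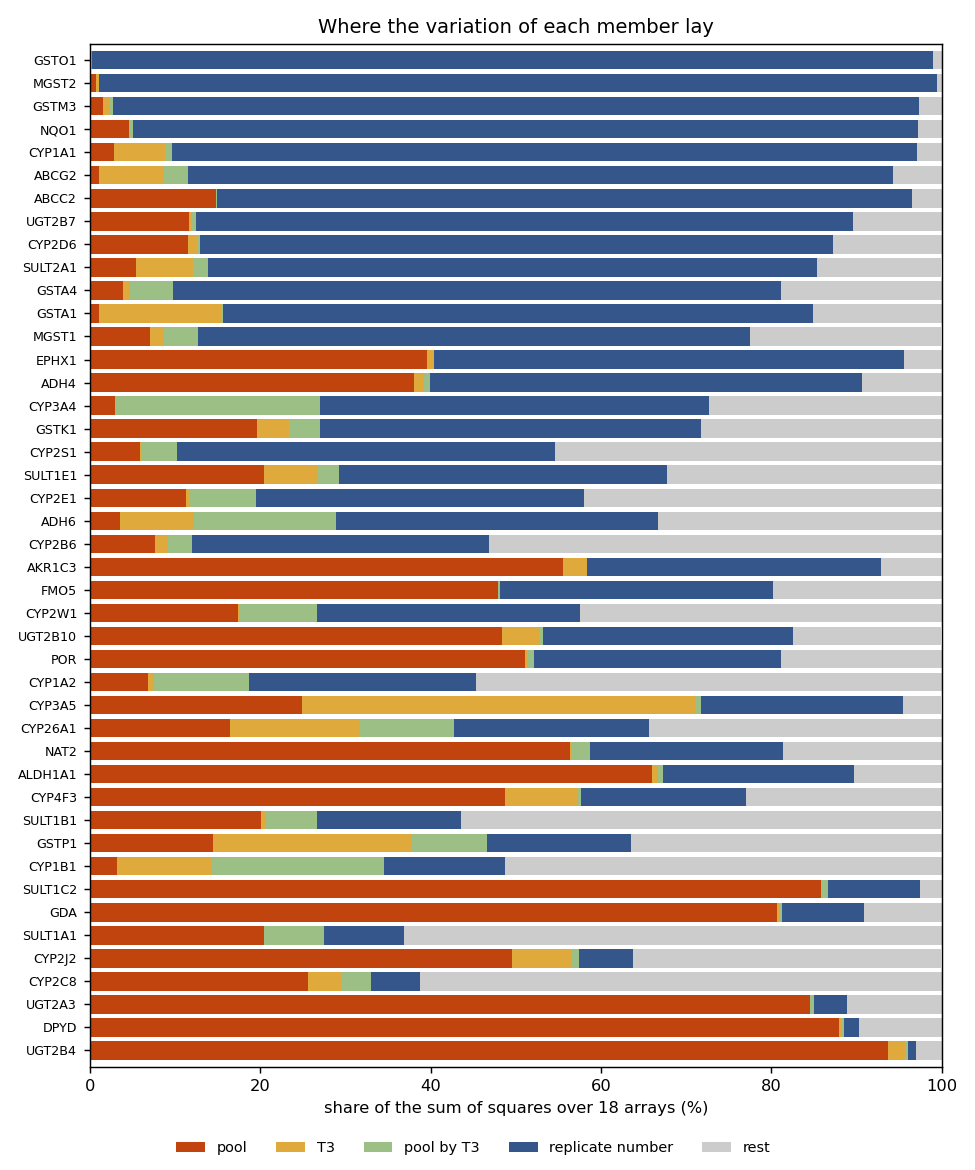
Share of each member's sum of squares over 18 arrays (%) that lay between pools, between T3 and vehicle, in their interaction, between replicate numbers and in the rest; members are ordered by the replicate share. GSTO1, MGST2, GSTM3, NQO1 and CYP1A1 lie at the end with the largest replicate share, UGT2B4, DPYD and UGT2A3 at the other, and the T3 share is widest for CYP3A5.

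Replicate number 1 stood apart in named enzymes. CYP1A1 averaged 9.51 in the 6 arrays of number 1, 6.42 in those of number 2 and 6.34 in those of number 3. GSTO1 averaged 9.71, 7.78 and 8.09 in the same order, and MGST2 averaged 10.4, 8.53 and 8.61. All 6 arrays of number 1 lay above the other 12 for 8 members, where 8.53% of all features did so, and below them for 2, CYP2D6 and ABCC2, where 9.42% did so. ABCC2 averaged 9.51 in number 1, 10.2 in number 2 and 10.2 in number 3. What the repeats differed in is not given in the sources used here, and each number holds 1 array of every group. Without all arrays of number 1 the median replicate share of members was 7.88%.

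**Figure D5:**
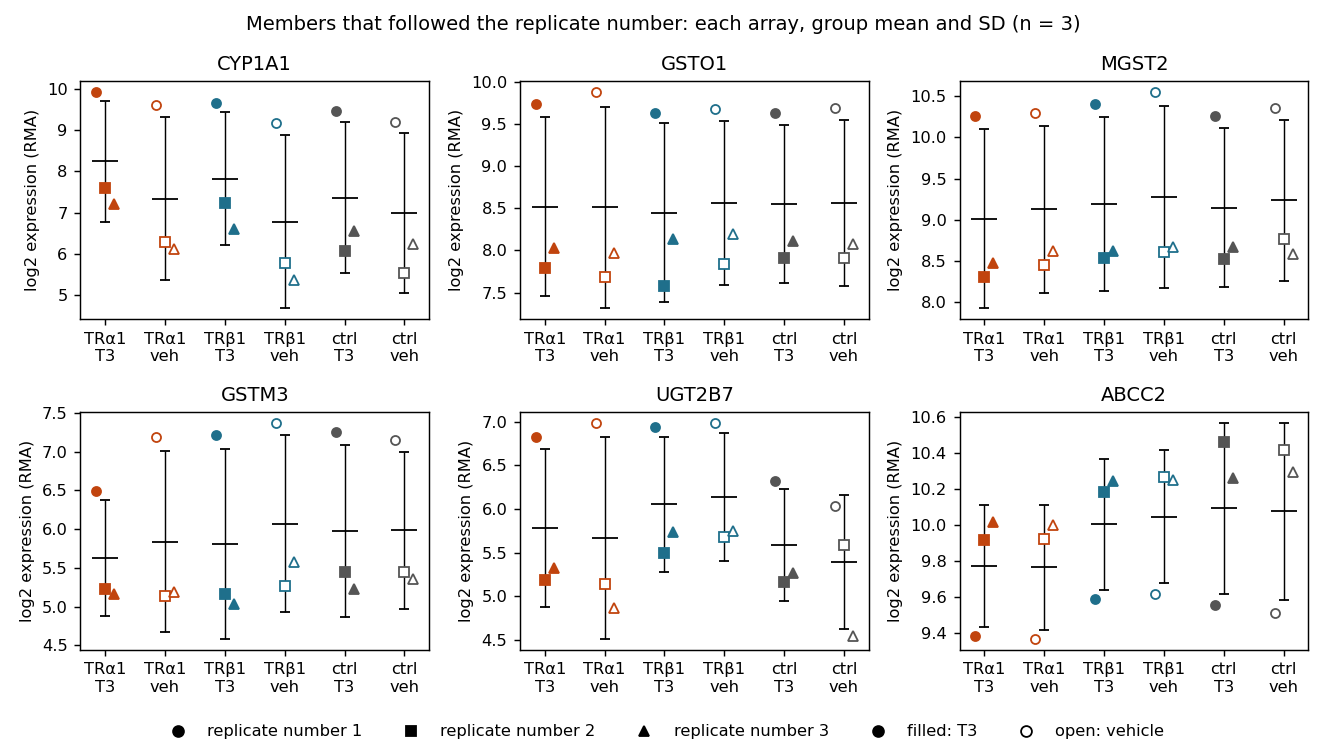
Log2 expression (RMA) of 6 members that followed the replicate number, on each of 18 arrays by pool and treatment, with the group mean and SD (n = 3). Replicate number 1 (circles) lies above the other numbers in every group for CYP1A1, GSTO1, MGST2, GSTM3 and UGT2B7, and below them for ABCC2.

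Related genes outside the list were counted in the same fits. For the mean T3 response, 0.423% of all features were called without the block and 1.69% with it. Not every such gene called between pools is named. Of 33 other genes of the P450 system, which include cytochrome b5 and its reductase, 1 passed for the mean T3 response without the block and 3 with it, all higher. CYP24A1, which inactivates vitamin D, led with 1.36 (adjusted p = 0.000673). Its response was 1.86 in TRα1 (0.0161), 1.83 in TRβ1 (0.0312) and 0.40 in control (1, and 0.748 with the block). The difference of responses passed with the block for TRα1 minus control (1.46; 0.0153, against 1 without it) and not for TRβ1 minus control (1.43; 0.113, against 1). With the block alone CYP4F12 (0.33; 0.00985, against 1) and CYP19A1, the aromatase (0.31; 0.00196, against 0.525), also passed. On vehicle CYP24A1 was lower in the TRβ1 pool than in control (-1.68; 0.0401), and in the TRα1 pool with the block (-1.04; 0.00119, against 0.343 without it). Of 47 other oxidoreductases, hydrolases and methyl or acyl transferases 1 passed for T3, HSD11B2, which inactivates cortisol (0.71; adjusted p = 0.00104). CES1, the liver carboxylesterase, was higher in the TRα1 pool on vehicle (0.95; adjusted p = 0.00552) and on T3 (1.13; 0.000752). In the TRβ1 pool it was higher than control with the block, on vehicle (0.52; 0.012, against 0.52) and on T3 (0.71; 0.000734, against 0.0762). Of 14 other transporters 1 passed for T3, ABCB4, the phospholipid exporter (0.42; 0.0261), and 4 with the block. SLC22A7, an organic anion carrier, was higher in the TRα1 pool on vehicle (1.13; 0.0137) and on T3 (1.04; 0.0179), and SLCO2B1, another, on T3 (1.26; 0.0179). SLC22A9 was lower in the TRα1 pool than in control with the block only, by -0.57 on vehicle (adjusted p = 0.0423, against 0.459) and -0.74 on T3 (0.00681, against 0.109). For T3, none of 7 other glucuronidation genes, which include enzymes of UDP-sugar supply, and none of 9 other genes of sulfate conjugation and its reversal passed in either fit. Of 14 other glutathione transferases and enzymes of glutathione synthesis and reduction, GSTA2 alone passed, with the block.

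The 14 regulators measured gave few calls. For the mean T3 response THRB passed (0.45; adjusted p = 0.0237), and with the block CEBPA (0.24; 0.0234, against 0.202 without it) and CEBPB (0.62; 0.00189, against 0.0749) were higher and PPARGC1A was lower (-0.22; 0.0215, against 1). AHR, ARNT, NR1I3, RXRA, NFE2L2, KEAP1, PPARA, ESRRA, NR0B2 and THRA did not pass, with differences between -0.16 for RXRA and 0.12 for THRA. Between pools, NR0B2, which encodes the repressor SHP, was lower in the TRα1 pool on vehicle (-0.63; adjusted p = 0.0178), and AHR was lower in the TRβ1 pool on T3 with the block (-0.61; 0.0259, against 1 without). NFE2L2 differed by -0.18 in TRα1 and -0.18 in TRβ1 against control on vehicle and did not pass. Among 12 other NRF2 targets HMOX1 was higher in both receptor pools on vehicle with the block (0.86 in TRα1 and 0.55 in TRβ1; 1.51e-05 and 0.00158, against 0.302 and 1 without it), and SLC7A11, the cystine transporter, was lower in TRα1 with the block (-0.65; 0.00117, against 0.313 without it).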

How the data were processed

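RNA of HepG2 pools was measured on 18 Affymetrix Human Gene ST arrays (200 ng total RNA each). The authors deposited log2 values for 32321 features; per the submitters' processing notes they were made by RMA in R 2.7.1. The build used for annotation is not given in the sources used here. Arrays were assigned to groups by their titles. Of the features, 19158 carried 1 gene symbol, 1388 several and 11775 none, and a gene was named only from a feature with 1. limma 3.58.1 in R 4.3.3 (lmFit, eBayes) fitted 6 group means on the deposited log2 values of 20546 features with a symbol, without a further filter, and p-values were adjusted by Benjamini-Hochberg within each of 13 contrasts. A second fit added the replicate number as a block. The labels state no pairing, but arrays with the same number in their titles deviated together. Over 45 pairs of same-numbered arrays of different groups, deviations from the group means correlated at 0.259 or more (median 0.597). Among arrays of other groups, 18 of 18 arrays correlated best with their own number. For different numbers the median was -0.483. Deviations cancel within each group, so that value is not independent of the same-number median. The number of arrays limits the precision, and the median standard error of a difference was 0.157 without and 0.107 with the block. The scripts were tested on simulated data.

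The members and all gene lists were chosen with earlier results of these data known. Values in every array were given for members called in either fit and for at most 5 higher and 5 lower members per contrast whose groups did not overlap, and the others by range and count. Of the genes outside the list, the regulators, the cell type markers given for comparison and some of the genes called in either fit were named. Alternatives were all features, features brighter than the median, array weights, quantile normalization repeated, the mean of a gene's features, only the arrays compared, and leaving out arrays.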

Additional observations from a re-analysis of the deposited data

Results flagged for a closer look

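In 2 of 44 members, CYP3A4 and GSTA4, every same-numbered pair was higher on T3 in one pool and lower in another. The same pattern was found in 6.64% of all 20546 features tested, so its count among the members is read as no result about them. CYP3A4, the main drug-metabolizing P450 of adult liver, differed between T3 and vehicle by 0.16, 0.95 and 0.18 in the TRβ1 pool, by -0.48, -0.12 and -0.21 in the TRα1 pool and by -0.46, 0.09 and 0.03 in the control pool. Its signal was low, at a mean log2 value of 3.35 over the 18 arrays. The difference of 0.7027 between these responses had an unadjusted p of 0.0562 without and 0.00617 with the block, and an adjusted p of 1 in both fits of limma. GSTA4, which conjugates lipid peroxidation products, differed by -0.04, -0.23 and -0.04 in the TRβ1 pool, by 0.02, 0.22 and 0.28 in the TRα1 pool and by 0.02, 0.04 and 0.17 in the control pool. Its response differed by -0.2755 between TRβ1 and TRα1 and by -0.1795 between TRβ1 and control, with an adjusted p of 1 in both fits for each.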

How the results depend on the processing

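No direction reversed under the alternatives run. With the replicate block, the members called numbered 1, 1 and 1 for T3 by pool (TRα1, TRβ1, control), 2 for the mean T3 response, 7, 8 and 3 on vehicle (TRα1 against control, TRβ1 against control, TRβ1 against TRα1) and 7, 6 and 4 on T3, and without it 0, 0, 0, 0, 4, 1, 0, 4, 2 and 0 in the same order. All 11 calls of single members without the block were also made with it, and 29 were made only with it.

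Without the block, including features with no symbol gave 1 for TRβ1 against control on T3. The mean T3 response gave 1 with bright features alone, 1 with array weights and 1 with the mean of a gene's features. Array weights gave 3 for TRβ1 against control and 1 for TRβ1 against TRα1 on vehicle. Fits to only the arrays compared gave 1 and 0 on vehicle and 2 and 0 on T3 for TRα1 and TRβ1 against control. With the block, including all features gave 0 for T3 in TRβ1, 0 in control, 4 for TRβ1 against control and 1 for TRβ1 against TRα1 on vehicle, and 1 for the last on T3. Bright features alone gave 2 for T3 in TRα1, 4 for the mean and 5 for TRβ1 against TRα1 on vehicle. Array weights gave 2 for T3 in TRα1, 5 for TRβ1 against TRα1 on vehicle and 11 for TRα1 against control on T3. Fits to only the arrays compared, which leave fewer samples for the spread, gave 0, 0 and 0 for T3 by pool, 3, 2 and 0 on vehicle, and 3 for TRβ1 against control and 0 for TRβ1 against TRα1 on T3. The cause of the other changes was not tested.

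Leaving out 1 array at a time without the block gave 0 to 0 for T3 in each pool, for the differences in response and for TRβ1 against TRα1, 0 to 1 for the mean T3 response, 1 to 4 and 0 to 1 for TRα1 and TRβ1 against control on vehicle, and 1 to 5 and 0 to 2 on T3. With the block it gave 0 to 1 for T3 in each pool, 1 to 3 for the mean, 0 to 0 for the differences in response, 3 to 7, 2 to 6 and 0 to 2 on vehicle and 2 to 7, 2 to 6 and 0 to 1 on T3. For single members with the block, leaving out 1 array or all arrays of 1 replicate number kept the call in 200 cases and lost it in 184. The median replicate share fell to 7.88% without replicate 1, against 34.7%. Signal over background is not given by these values, so dim members such as SULT1B1, CYP2C8 and NAT2 are limited most. GDA also averaged below the array medians.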
